A study of Mus musculus with 12 samples.

Results

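The 8 genes described here encode parts of the route by which dopamine and adenosine receptors set cyclic AMP in striatal neurons: the G protein subunits Gnal, Gng7 and Gnb5, the adenylyl cyclase Adcy5, the protein kinase A subunit Prkar2b, and the phosphoproteins Ppp1r1b, Arpp19 and Arpp21. They were taken by symbol from a table of read counts with 21872 gene symbols. All 8 were found, and all 8 were among the 14545 genes that passed the filter on low counts and were tested.

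Messenger RNA was sequenced from the striatum (STR) and the prefrontal cortex (PFC) of 24-day-old (P24) C57BL/6J mice. The study modelled attention-deficit/hyperactivity disorder (ADHD) with the toxin 6-hydroxydopamine (6-OHDA), which kills dopamine neurons, in a postnatal model, and asked how gene expression then differs in both regions. The 4 groups were lesioned striatum, control striatum, lesioned prefrontal cortex and control prefrontal cortex, with 3 libraries each and 12 in all. The labels name the lesioned mice ADHD and the others Control. All groups share the strain and the age. At what age, dose and site the toxin was given, and what the control mice received, is not stated in the labels used here. Nothing in them ties a library to an animal of its own. The p-values therefore measure only how the libraries spread, and that spread may be technical.

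Striatal projection neurons make up most of the neurons of the striatum. Those with the D1 dopamine receptor raise cyclic AMP through a stimulatory G protein whose alpha subunit is Gαolf, and those with the D2 receptor lower it through inhibitory G proteins, while an adenosine receptor of D2 cells acts through Gαolf. Cyclic AMP frees the catalytic subunits of protein kinase A, which phosphorylate DARPP-32, ARPP-19 and ARPP-21. Phosphorylated DARPP-32 inhibits protein phosphatase 1, so that the kinase signal lasts longer.

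Gnal encodes Gαolf. Gng7 on chr10:80948624-81014945 (GENCODE M21 annotation of GRCm38, the mm10 assembly) encodes the G protein gamma subunit that is paired with Gαolf in mouse striatum. Gnb5 on chr9:75306288-75345876 encodes the unusual beta subunit that forms a complex with R7 regulators of G protein signalling. Adcy5 on chr16:35154877-35305738 encodes the main adenylyl cyclase of the striatum. Prkar2b on chr12:31958476-32061296 encodes the regulatory subunit RIIβ of protein kinase A. Ppp1r1b on chr11:98348404-98357796 encodes DARPP-32. Arpp19 on chr9:75037614-75060313 encodes a phosphoprotein that, like its paralog Ensa, inhibits phosphatase 2A with a B55 subunit once the Greatwall kinase has phosphorylated it. Arpp21 on chr9:112065091-112235938 encodes a phosphoprotein that binds RNA and, in its short form, calmodulin.

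The promoter windows of Adcy5, Gng7 and Arpp19 are shown because Adcy5 and Gng7 were among the pairs of these genes with the closest profiles, whereas Arpp19 had the opposite regional pattern in control mice. Each runs from 250 bases before to 50 bases after a RefSeq transcript start (GRCm38.p6), and capitals mark the GC box GGGCGG on either strand. The Adcy5 window is chr16:35154614-35154913 on the plus strand, the Gng7 window chr10:81014876-81015175 on the minus strand, and the Arpp19 window chr9:75037364-75037663 on the plus strand.
Adcy5: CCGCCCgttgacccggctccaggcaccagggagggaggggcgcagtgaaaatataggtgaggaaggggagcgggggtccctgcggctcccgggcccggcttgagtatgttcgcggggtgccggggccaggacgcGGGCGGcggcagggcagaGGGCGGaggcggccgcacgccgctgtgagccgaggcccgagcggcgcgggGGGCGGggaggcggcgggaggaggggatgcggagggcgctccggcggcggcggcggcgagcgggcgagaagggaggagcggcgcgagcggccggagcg
Gng7: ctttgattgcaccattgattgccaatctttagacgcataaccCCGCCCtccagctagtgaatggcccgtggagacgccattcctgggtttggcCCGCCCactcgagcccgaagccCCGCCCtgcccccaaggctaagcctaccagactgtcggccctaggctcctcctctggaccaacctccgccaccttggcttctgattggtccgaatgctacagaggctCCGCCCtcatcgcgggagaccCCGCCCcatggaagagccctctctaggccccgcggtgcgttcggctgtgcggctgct
Arpp19: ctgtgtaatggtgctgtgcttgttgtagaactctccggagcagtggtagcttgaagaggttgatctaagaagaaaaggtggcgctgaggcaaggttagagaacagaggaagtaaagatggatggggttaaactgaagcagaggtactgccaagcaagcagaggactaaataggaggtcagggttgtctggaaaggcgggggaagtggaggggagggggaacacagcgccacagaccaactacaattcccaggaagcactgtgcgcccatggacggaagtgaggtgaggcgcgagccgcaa

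The Adcy5 window held 79.0% G and C, more than 98.6% of the 32851 RefSeq promoter windows, and 44 CpG dinucleotides against a median of 7. It held 4 GC boxes. Of the 2 Gng7 windows, the printed one held 5 and the other 0, and of the 2 Arpp19 windows, the printed one held 0 and an overlapping one further downstream held 1. A GC box was present in 35.7% of all windows. In all, 17 windows matched Adcy5, Gng7, Gnb5, Prkar2b, Arpp19 and Arpp21. Of these, 4 held a GC box: those of Adcy5, Gng7 and Arpp19 just given, and 1 of Prkar2b with 4 boxes. The half-site of the cyclic AMP response element (TGACG, either strand) was held by 4 windows, of Arpp21 and Gng7, and by 20.8% of all windows. Among these 4, 2 overlapping windows of Arpp21 held the same site. None of the 17 held the full element TGACGTCA, which contains that half-site and stood in 1.79% of all windows. A match of letters is a description and shows no binding.

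Total counts per library ranged from 15078631 to 20925452. The lowest value of any of the 8 genes was 86.54 CPM (counts scaled to a common library size after TMM normalisation), for Prkar2b in 1 lesioned prefrontal library, far above the floor of 3 counts, which lay between 0.143 and 0.199 CPM. The spread was uneven: the biological coefficient of variation was 15% among the striatal libraries and 5.8% among the prefrontal ones. Among the striatal libraries, lesioned library 1 and control library 2 stood apart. The 8 choroid plexus markers summed to 30.98 to 41.27 CPM in lesioned striatum, against 51.19 to 2105 CPM in control striatum, where library 2 gave the 2105. The 15 markers of the hypothalamus and bordering nuclei summed to 311.6 to 1327 CPM in lesioned striatum, lowest in library 1, against 585.9 to 1244 CPM in control striatum. Their defining genes were near 0 in prefrontal cortex, where the list summed to 31.58 to 38.88 CPM over both groups. The 12 markers of cortical excitatory neurons summed to 473.9 to 783.3 CPM in lesioned striatum and 390.3 to 1185 CPM in control striatum, with control library 2 highest, against 3854 to 4207 CPM in prefrontal cortex.

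In lesioned striatum the mean level of all 8 genes lay above that of control striatum, by between 1.16 times for Prkar2b and 2.53 times for Arpp19, but none of them passed the test. The fit of the 6 striatal libraries called 0 of the 8 genes at an adjusted p below 0.05 and 6 of 14545 genes, or 0.0413%. Without adjustment 7 of the 8 had p below 0.05, against 17.2% of all tested genes, and the log2 fold change was above 0 for 8 of the 8, against 50.2% of all. The median log2 fold change of the 8 was 0.89 and that of all tested genes 0.001. In bulk tissue, more cells of a type and more RNA per cell cannot be told apart.

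**Figure D1:**
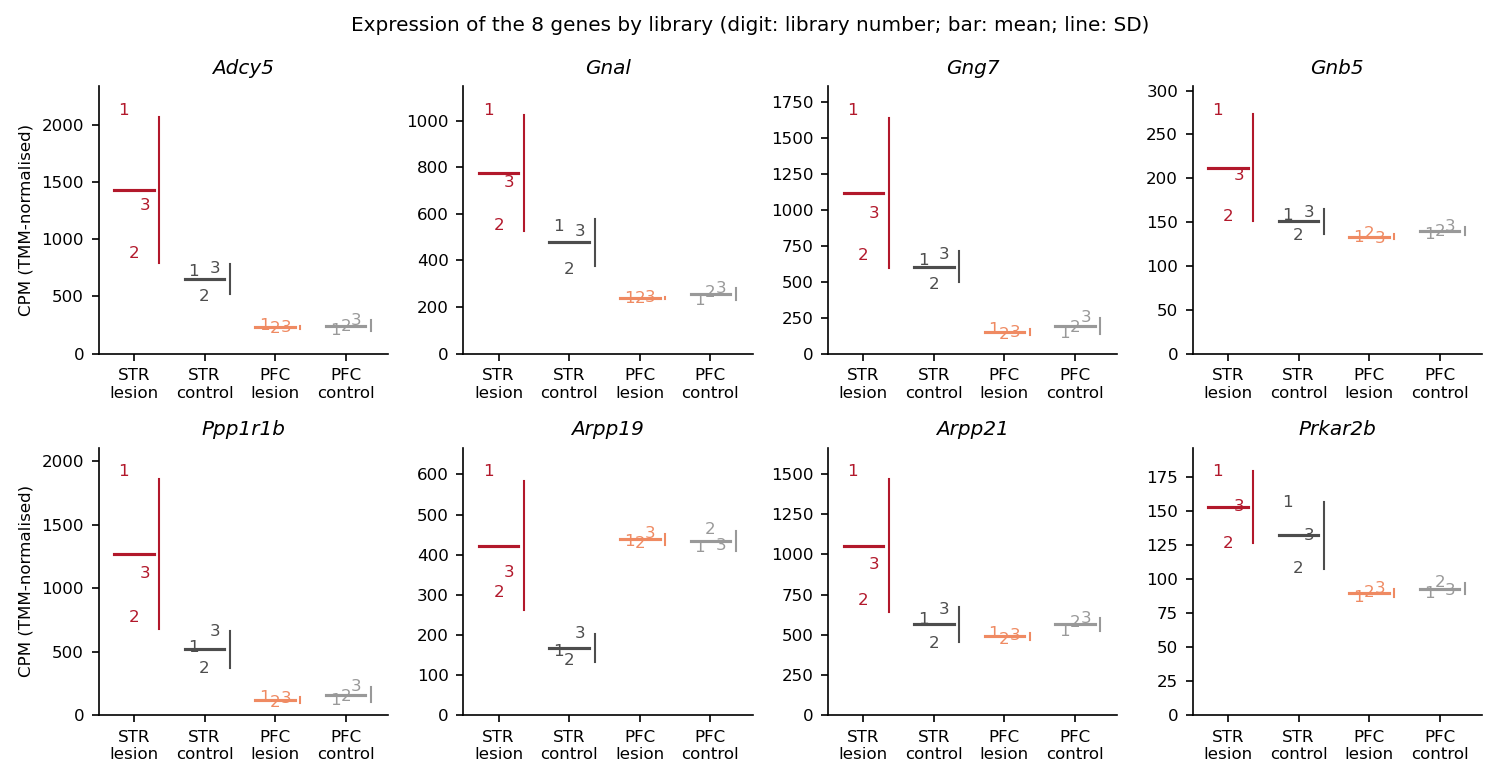
Level of each gene in CPM (linear axis from 0) by group, with striatum (STR) left of prefrontal cortex (PFC) and lesioned left of control. Digits are library numbers, horizontal bars means and vertical lines SDs of 3 libraries; lesioned striatal library 1 is the highest of its group for every gene, with 2132 CPM for Adcy5, and control striatal library 2 the lowest of its group, with 500.5 CPM.

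Of the G protein subunits, Gnal reached 1045, 548.9 and 733.5 CPM in lesioned striatal libraries 1, 2 and 3, against 547.1, 362.8 and 524.5 CPM in control striatal libraries 1, 2 and 3. The groups did not overlap, but lesioned library 2 was only just above control library 1. The log2 fold change of Gnal was 0.70 (SE 0.25, adjusted p = 0.243 by edgeR's quasi-likelihood test). Gng7 measured 1693, 682.3 and 973.1 CPM in lesioned striatum, against 644.6, 481.8 and 686.1 CPM in control striatum. Here the groups overlapped, since lesioned library 2 lay below control library 3, and the log2 fold change was 0.88 (SE 0.32, adjusted p = 0.242, edgeR). Gnb5 stood at 277.5, 156.2 and 203.0 CPM in lesioned striatum, against 157.3, 134.9 and 161.3 CPM in control striatum. The groups overlapped again, with lesioned library 2 inside the control range. Its log2 fold change was 0.49 (SE 0.20, adjusted p = 0.273, edgeR).

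The cyclase gene Adcy5 was measured at 2132, 878.0 and 1297 CPM in lesioned striatum, against 717.2, 500.5 and 745.6 CPM in control striatum. Every lesioned library lay above every control library, and the log2 fold change was 1.13 (SE 0.32, adjusted p = 0.188, edgeR). Prkar2b, the kinase subunit, had 178.6, 125.7 and 153.0 CPM in lesioned striatum, against 156.4, 107.4 and 132.2 CPM in control striatum. These groups overlapped by most of their range. Its log2 fold change of 0.21 (SE 0.17, adjusted p = 0.547, edgeR) was the smallest of the 8 and the only one with an unadjusted p above 0.05, at 0.263.

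Among the phosphoproteins, Ppp1r1b gave 1918, 766.1 and 1118 CPM in lesioned striatum, against 529.0, 369.3 and 657.1 CPM in control striatum, without overlap. Its log2 fold change was 1.29 (SE 0.35, adjusted p = 0.185, edgeR). Arpp19 had 606.6, 305.3 and 355.6 CPM in lesioned striatum, against 159.4, 136.1 and 204.5 CPM in control striatum. The lowest lesioned library was well above the highest control library, the log2 fold change was 1.34 (SE 0.27) and the adjusted p of 0.155 (edgeR) was the lowest of the 8. Arpp21 had 1515, 713.5 and 939.1 CPM in lesioned striatum, against 597.9, 442.8 and 656.1 CPM in control striatum, again without overlap, and its log2 fold change was 0.90 (SE 0.28, adjusted p = 0.214, edgeR). The groups of 5 of the 8 genes, Gnal, Adcy5, Ppp1r1b, Arpp19 and Arpp21, did not overlap, all higher after the lesion, against 13.1% of all tested genes with that pattern.

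The calls in striatum differed between fits. With all 12 libraries in 1 fit, 4 of the 8 genes were called higher, against 4.15% of all tested genes: Arpp19 (adjusted p = 0.00808), Adcy5 (0.0309), Arpp21 (0.035) and Ppp1r1b (0.0412). DESeq2 on the 6 striatal libraries called the same 4 genes, against 2.16% of all called higher. Leaving out lesioned striatal library 1 and control striatal library 2 lowered every fold change. The median of the 8 was then 0.356, Adcy5 stood at 0.57, Ppp1r1b at 0.67, Arpp21 at 0.40, Gng7 at 0.32, Gnal at 0.26, Gnb5 at 0.17 and Prkar2b at -0.05. Arpp19 kept a log2 fold change of 0.86 and was called in that fit (adjusted p = 0.0439, edgeR), which called 0.268% of all tested genes higher. The libraries left out were the highest of the lesioned and the lowest of the control group for all 8 genes. That fit thus has fewer libraries per group and a narrower spread, which enters the p-value. Without lesioned library 1 alone the median of the 8 was 0.50, and without control library 2 alone it was 0.75. Each of these fits called 0 of the 8.

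**Figure D2:**
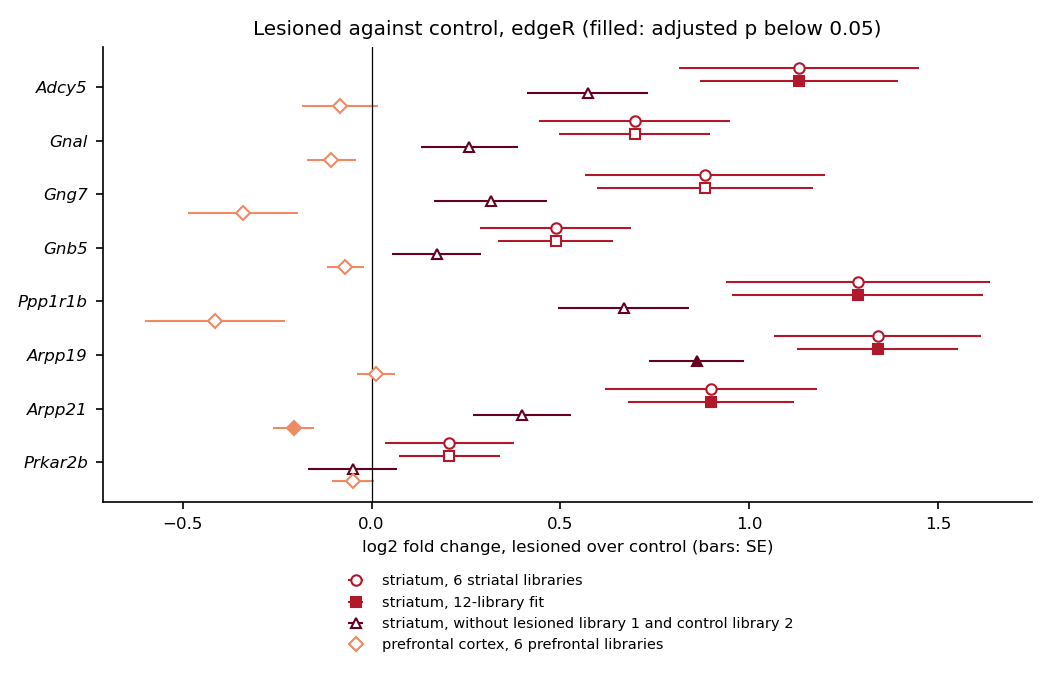
Log2 fold change of lesioned over control, with its standard error, for each gene in striatum by 3 fits and in prefrontal cortex. Filled symbols passed an adjusted p of 0.05; in striatum the fit of 6 libraries has none, the 12-library fit has 4, and leaving out the libraries that stood apart draws Adcy5 in to 0.57 and leaves Arpp19 at 0.86.

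Markers of striatal projection neurons moved with the 8 genes. This list held 22 genes after the 8 were left out, all tested. The fit of the striatal libraries called 0 of the 22. The 12-library fit called 12 higher and 0 lower, against 4.15% of all tested genes higher and 3.0% lower. The median log2 fold change of the 22 was 1.27. They summed to 5273 to 13550 CPM in lesioned striatum and 2480 to 3908 CPM in control striatum, and none was at 0 in any library. Their mean log2 CPM was 8.11, 6.95 and 7.41 in lesioned libraries 1, 2 and 3, against 6.54, 6.03 and 6.63 in control libraries 1, 2 and 3, so that lesioned library 1 was highest and control library 2 lowest, as for the 8 genes. In the other direction, the 10 astrocyte markers had a mean log2 CPM of 7.32 to 7.48 in lesioned and 7.58 to 7.63 in control striatum. The striatal fit called 0 of the 10, and the 12-library fit called 2 lower. Their sums overlapped, at 4387 to 5219 CPM in lesioned and 5030 to 5183 CPM in control striatum. The 8 microglia markers had a median log2 fold change of 0.27, with 0 called in the striatal fit and 1 called higher in the 12-library fit. The part of these lists in the differences was not tested. The values relative to the markers that follow are a description, since they cannot tell more cells from more RNA per cell.

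Set against the mean of these markers within each library, the 8 genes separated from each other. Adcy5 stood at 2.95, 2.83 and 2.94 log2 units above the marker mean in lesioned striatum, against 2.95, 2.94 and 2.92 in control striatum. The difference was -0.03, within the spread between libraries (exact permutation test over 3 against 3 libraries, two-sided p = 0.7). Ppp1r1b was also within overlapping ranges, at 2.80, 2.63 and 2.72 in lesioned striatum, against 2.51, 2.50 and 2.74 in control striatum, with a difference of 0.13 (exact permutation p = 0.3). Arpp19 was the 1 gene of the 8 whose lesioned libraries all lay above the control libraries on this scale, with 1.14, 1.31 and 1.07 in lesioned striatum, against 0.78, 1.06 and 1.05 in control striatum. The gap between the groups was small beside their ranges, and the difference was 0.21. Such a pattern was found for 0.165% of all tested genes.

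The other 5 genes lay lower relative to the markers in every lesioned library than in any control library, as did 84.6% of all tested genes. Prkar2b had the largest difference, -0.88, with -0.63, 0.03 and -0.15 in lesioned striatum, against 0.75, 0.72 and 0.42 in control striatum. Gnb5 differed by -0.64, Gnal by -0.42, Gng7 by -0.29 and Arpp21 by -0.24. Since most tested genes share this direction, it does not set these 5 apart. For Arpp19 and for these 5 genes the exact permutation p was 0.1, the smallest that 3 against 3 libraries allow, and 0.133 after Benjamini-Hochberg adjustment over the 8 comparisons. The median of the 8 differences was -0.27, and it became 0.84 when the 11 tested G alpha subunits were put in place of the markers.

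**Figure D3:**
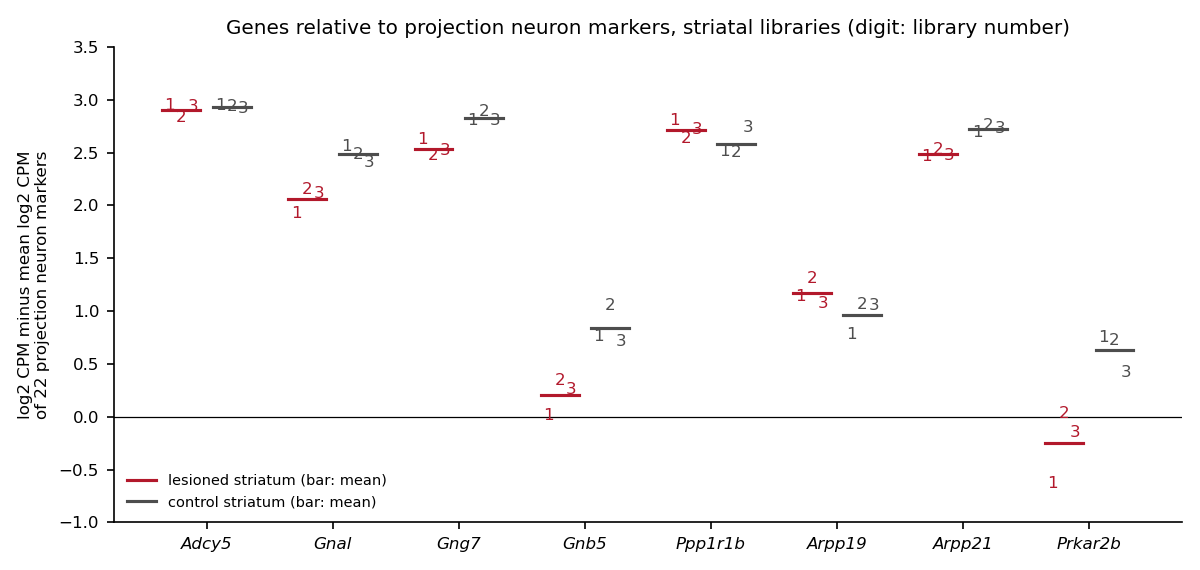
Log2 CPM of each gene minus the mean log2 CPM of 22 projection neuron markers in the same striatal library, lesioned left of control, with digits for library numbers and bars for means of 3 libraries. Adcy5 has nearly the same value in all 6 libraries (differing by -0.03 between groups), Arpp19 lies 0.21 higher in lesioned libraries and Prkar2b differs by -0.88.

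Prefrontal cortex gave a different picture for the same genes. Arpp21 fell in lesioned prefrontal cortex, and it was the only 1 of the 8 to pass the test there. It had 507.4, 468.2 and 493.9 CPM in lesioned prefrontal cortex, against 520.3, 576.2 and 599.5 CPM in control prefrontal cortex. The groups did not overlap, though lesioned library 1 and control library 1 were close. The log2 fold change was -0.21 (SE 0.06, adjusted p = 0.0424, edgeR). Of all tested genes, 5.58% were called in this comparison, 535 of them higher and 277 lower, or 1.9% lower, and 10.8% were lower without overlap. A correction for gene length and GC content changed that split to 323 higher and 308 lower, and it kept the call of Arpp21 (adjusted p = 0.0266). The call was lost in the 12-library fit (adjusted p = 0.809), which called 0.206% of all tested genes, and after leaving out any 1 prefrontal library other than control library 1, with the highest adjusted p, 0.218, without lesioned library 2. Marker lists of other cells differed in direction there. Of the 10 astrocyte markers 5 were called lower and 0 higher in lesioned prefrontal cortex, with a median log2 fold change of -0.18 and 0 calls in the 12-library fit. They summed to 5327 to 5489 CPM in lesioned prefrontal cortex, against 5880 to 6289 CPM in control prefrontal cortex, without overlap and with none at 0. Of the 22 projection neuron markers 1 was called higher and 1 lower there, with a median of -0.36. They summed to 824.6 to 1101 CPM in lesioned prefrontal cortex, against 842.2 to 1493 CPM in control prefrontal cortex. Their mean log2 CPM was 4.36, 3.73 and 4.16 in lesioned libraries 1, 2 and 3, against 3.83, 4.42 and 5.02 in control libraries 1, 2 and 3. Within each group the libraries thus stood in the same order as for Arpp21. Of the 12 cortical excitatory neuron markers 2 were called higher and 0 lower, with a median of 0.05 and 0 calls in the 12-library fit. The part of these lists in the difference of Arpp21 was not tested.

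For the other 7 genes no difference in prefrontal cortex passed the test. Ppp1r1b measured 137.4, 95.22 and 128.8 CPM in lesioned prefrontal cortex, against 110.8, 149.0 and 224.3 CPM in control prefrontal cortex. Gng7 measured 170.3, 133.4 and 148.3 CPM in lesioned prefrontal cortex, against 141.5, 182.1 and 250.7 CPM in control prefrontal cortex. Both genes overlapped, and for both control library 3 was the highest of the 6. Its projection neuron markers were also the highest, with a mean log2 CPM of 5.02, against 3.83 and 4.42 in control libraries 1 and 2 and 3.73 to 4.36 in lesioned libraries. Whether striatal tissue had a part in these values was not tested. The log2 fold changes were -0.41 for Ppp1r1b (SE 0.19, adjusted p = 0.234, edgeR) and -0.34 for Gng7 (SE 0.15, adjusted p = 0.21, edgeR). Gnal at -0.11, Adcy5 at -0.08, Gnb5 at -0.07, Prkar2b at -0.05 and Arpp19 at 0.01 lay closer to 0. In this region 1 of the 8 fold changes was above 0, against 52.0% of all tested genes.

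The difference between the lesion effects of the regions was tested as an interaction over all 12 libraries. It called 0 of the 8 genes, and 12 of 14545 genes or 0.0825%. Unadjusted, 7 of the 8 had p below 0.05, against 11.7% of all tested genes. The striatal effect exceeded the prefrontal one by 1.71 log2 units for Ppp1r1b (SE 0.47, adjusted p = 0.278, edgeR) and by 1.33 for Arpp19 (SE 0.30, adjusted p = 0.208, edgeR). The values were 1.23 for Gng7, 1.22 for Adcy5, 1.11 for Arpp21, 0.80 for Gnal, 0.56 for Gnb5 and 0.26 for Prkar2b. DESeq2 called Arpp19 (adjusted p = 0.00356) and Arpp21 (adjusted p = 0.0396) higher, against 0.385% of all tested genes. Without the striatal libraries that stood apart the median of the 8 differences was 0.63, against 1.16 with them. Ppp1r1b then stood at 1.08 (adjusted p = 0.186) and Prkar2b at -0.001, while Arpp19 was called by edgeR, at 0.85 (adjusted p = 0.0121), in a fit that called 0.282% of all tested genes higher. Leaving out either of these libraries alone called 0 of the 8.

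Most of the 8 genes were called higher in striatum than in prefrontal cortex. Arpp19 was not, in either lesioned or control mice, and Gnb5 and Arpp21 were not in control mice. Striatal projection neuron markers were likewise called higher in striatum, 22 of 22 in lesioned and 20 of 22 in control mice, as were 9 of 9 oligodendrocyte markers in both. The part of these cells in the differences was not tested. In lesioned mice, 7 of the 8 were called higher in striatum and 0 lower, in a comparison that called 22.2% of all tested genes higher. Ppp1r1b led, with 3.40 on the log2 scale (SE 0.34), and Gng7 followed with 2.89 (SE 0.32) and Adcy5 with 2.65 (SE 0.30). Gnal was higher by 1.71 (SE 0.21), Arpp21 by 1.11 (SE 0.24), Prkar2b by 0.77 (SE 0.12) and Gnb5 by 0.67 (SE 0.18, adjusted p = 0.0196, edgeR). Arpp19 did not pass the test, with a log2 fold change of -0.05 (adjusted p = 0.875). Its 606.6, 305.3 and 355.6 CPM in lesioned striatum lay on both sides of the 433.4, 427.4 and 452.6 CPM in lesioned prefrontal cortex. Without lesioned striatal library 1 Arpp19 was called lower in striatum, at -0.40 (adjusted p = 0.00078, edgeR). The call of Gnb5 was lost without any 1 of the lesioned prefrontal libraries (adjusted p = 0.0586 to 0.073).

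In control mice 5 of the 8 were higher in striatum, against 21.0% of all tested genes, and 1 was lower, against 20.8%. The 5 were Ppp1r1b at a log2 ratio of 1.69 (SE 0.28), Gng7 with 1.66 (SE 0.21), Adcy5 with 1.43 (SE 0.18), Gnal with 0.90 (SE 0.15) and Prkar2b with 0.51 (SE 0.12, adjusted p = 0.0105, edgeR). Arpp19 was lower in control striatum, at -1.38 (SE 0.14, adjusted p = 0.000137, edgeR), with 136.1 to 204.5 CPM in striatum and 417.1 to 462.1 CPM in prefrontal cortex. Gnb5, at 0.12 (adjusted p = 0.265), and Arpp21, with 442.8 to 656.1 CPM in striatum and 520.3 to 599.5 CPM in prefrontal cortex (adjusted p = 0.982), did not pass the test. Without control striatal library 2 Gnb5 was called higher in striatum, at 0.19 (adjusted p = 0.0245, edgeR). These comparisons between regions use the same libraries as the lesion contrasts, so they are not separate evidence.

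**Figure D4:**
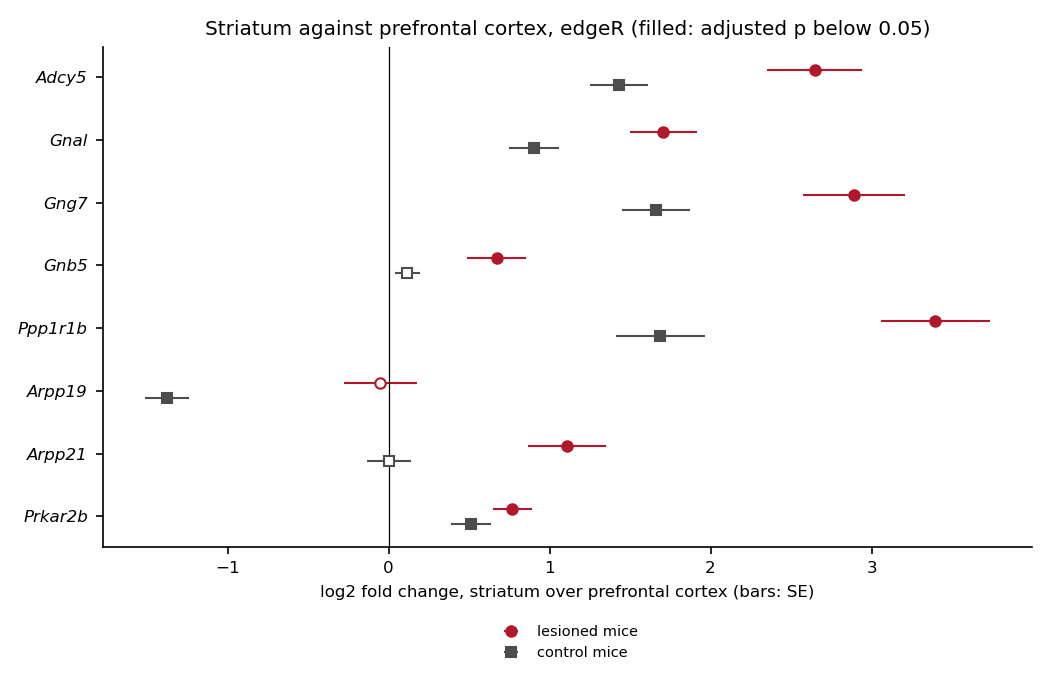
Log2 fold change of striatum over prefrontal cortex with its standard error, in lesioned and in control mice; filled symbols passed an adjusted p of 0.05. Ppp1r1b, Gng7, Adcy5, Gnal and Prkar2b lie above 0 in both, Arpp19 lies at -1.38 in control mice and -0.05 in lesioned mice, and Arpp21 near 0 in control mice and at 1.11 in lesioned mice.

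For comparison between genes, CPM was divided by the length of the union of a gene's exons in kilobases. On this scale Ppp1r1b was the highest of the 8 in both striatal groups, at 433 ± 202 CPM per kb in lesioned striatum and 177 ± 49.2 in control striatum (SD, n = 3 each). Gng7 came next at 295 ± 137 CPM per kb in lesioned striatum and 160 ± 28.5 in control striatum, and Adcy5 at 200 ± 88.9 in lesioned striatum and 91.1 ± 18.7 in control striatum. In control striatum the ranges of Ppp1r1b and Gng7 overlapped, while those of Gng7 and Adcy5 and of Adcy5 and Gnb5 did not. The next gene was Gnb5 at 48.5 ± 4.57 CPM per kb in control striatum, then Gnal at 42.8 ± 9.0, Prkar2b at 36.1 ± 6.72, Arpp19 at 33.6 ± 7.01 and Arpp21 at 32.5 ± 6.33, each overlapping its neighbour. In lesioned striatum Arpp19 came next after Adcy5, at 85.2 ± 32.6 CPM per kb, and every neighbouring pair overlapped. In prefrontal cortex Arpp19 was the highest of the 8, at 88.3 ± 2.66 CPM per kb in lesioned and 87.6 ± 4.92 in control libraries. Gnal was the lowest on this scale, at 21.3 ± 0.308 in lesioned and 22.9 ± 2.45 in control libraries. The union spans all annotated transcripts of a gene. It was 17428 bases for Arpp21 and 11172 for Gnal, against 5320 and 5736 for their longest transcripts. The low places of both genes therefore depend on this choice of length, and an order by transcript length was not made.

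Ordered by group, Gnal, Gng7, Adcy5, Ppp1r1b and Prkar2b ran from lesioned striatum through control striatum to both prefrontal groups, which overlapped. Lesioned and control striatum were apart for Gnal, Adcy5 and Ppp1r1b and overlapped for Gng7 and Prkar2b. Gnb5 overlapped at each step of that order. Arpp21 was highest in lesioned striatum, while control striatum and control prefrontal cortex overlapped at 565.6 ± 110 and 565.3 ± 40.7 CPM. For Arpp19, unlike the other 7 genes, lesioned striatum averaged less than either prefrontal group, at 422.5 ± 161 CPM in lesioned striatum, against 437.8 ± 13.2 CPM in lesioned and 434.1 ± 24.4 CPM in control prefrontal cortex (SD, n = 3 each), and the ranges overlapped.

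Likeness of profiles was measured as the root mean square difference of log2 CPM, centred on each gene's mean, over the 12 libraries, which share region, lesion and tissue makeup. Among the 8, Adcy5 and Gng7 (0.19), Gnb5 and Arpp21 (0.19) and Gnb5 and Prkar2b (0.19) were the closest pairs, followed by Gng7 and Ppp1r1b at 0.23. The measure is not scaled to how much a gene varies. Over the 12 libraries the SD of log2 CPM was 0.32 for Gnb5, 0.37 for Prkar2b and 0.5 for Arpp21. It was 1.16 for Adcy5 and 1.26 for Gng7. A difference of 0.19 is therefore larger beside the spread of Gnb5, Prkar2b and Arpp21 than beside that of Adcy5 and Gng7. Arpp19 was the farthest from the rest, between 0.65 from Gnb5 and 1.66 from Ppp1r1b. Of all other genes above 1 CPM, the closest to Adcy5 were Pde1b (0.08), Pde7b (0.12) and Rasd2 (0.15). Gng7 was nearest to Asic4 (0.12), Rem2 (0.19) and Tac1 (0.20), and Ppp1r1b to Rxrg and Rasgrp2 (0.15 each). Around Gnal the nearest were Rcn1 (0.09), Cacng4 (0.10) and Ric8b (0.10), and around Gnb5 they were Ppp2r2a (0.08), Slc6a6 (0.08) and Plekha5 (0.09). Arpp19 had Atp6ap1l (0.15), Plxnd1 (0.18) and Rgs4 (0.19), Arpp21 had Kcnk2 (0.11), Sgk3 (0.11) and Cacna2d3 (0.12), and Prkar2b had Pptc7 (0.08), Alcam (0.09) and Scn3a (0.09).

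The relatives of the 8 genes in the same pathway mostly stayed closer to 0 in lesioned against control striatum. Of 15 other G alpha subunit genes, 11 were tested and 0 were called, with a median log2 fold change of -0.04. The closest to a call was Gnao1, the alpha subunit of Go, at 0.43 (SE 0.13, adjusted p = 0.21, edgeR). The 12-library fit did call it higher (adjusted p = 0.032), as it did 4.15% of all tested genes. Gnas, the other stimulatory alpha subunit and the one most used outside the striatum, stood at -0.42 (SE 0.21, adjusted p = 0.353, edgeR), and Gnai1, an inhibitory one, at -0.22. Of 15 other beta and gamma subunit genes, 13 were tested, 0 were called and the median was 0.14. Gng3 at -0.33 was called lower in the 12-library fit (adjusted p = 0.0459), as were 3.0% of all tested genes. Gng12 at -0.24 and Gnb2 at 0.28 were not called.

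Of 9 other adenylyl cyclases 8 were tested, 0 were called in striatum and the median was -0.12, with Adcy4 at -0.65 (SE 0.20, adjusted p = 0.214, edgeR), Adcy6 at -0.40 and Adcy3 at 0.36. In prefrontal cortex, 3 of these 8 rose after the lesion, against 3.68% of all tested genes, and 0 fell. They are named because of these calls and were chosen after their values were seen: Adcy9 by 0.35 (SE 0.08), Adcy1 by 0.25 (SE 0.06) and Adcy2 by 0.24 (SE 0.05), with adjusted p between 0.0115 and 0.0214 in edgeR, and none was called in the 12-library fit. Gng12 fell there by 0.29 on the log2 scale (adjusted p = 0.0133, edgeR), likewise without a call in the 12-library fit. Of all tested genes, 1.9% were called lower in that region. Protein kinase A gave 8 other subunit and inhibitor genes, all tested, with 0 calls and a median of -0.10 in striatum, where Pkib stood at -0.58, Prkar2a at -0.22 and Prkacb at 0.19.

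The phosphatases and kinases that act on or with DARPP-32 and ARPP-19 gave 20 tested genes of 21, with 0 calls and a median of 0.11 in striatum. The 12-library fit called 3 of them higher, against 4.15% of all tested genes. They were Ppp2r2a, a B55 subunit of phosphatase 2A, at 0.57 (adjusted p = 0.0326), Ppp3ca, a catalytic subunit of calcineurin, at 0.76 (adjusted p = 0.0392), and Ppp1ca, a catalytic subunit of phosphatase 1, at 0.58 (adjusted p = 0.042). In prefrontal cortex Ppp2r5d, named after its value was seen, fell by 0.20 on the log2 scale (adjusted p = 0.0409, edgeR), again without a call in the 12-library fit. There 1.9% of all tested genes were called lower.

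**Figure D5:**
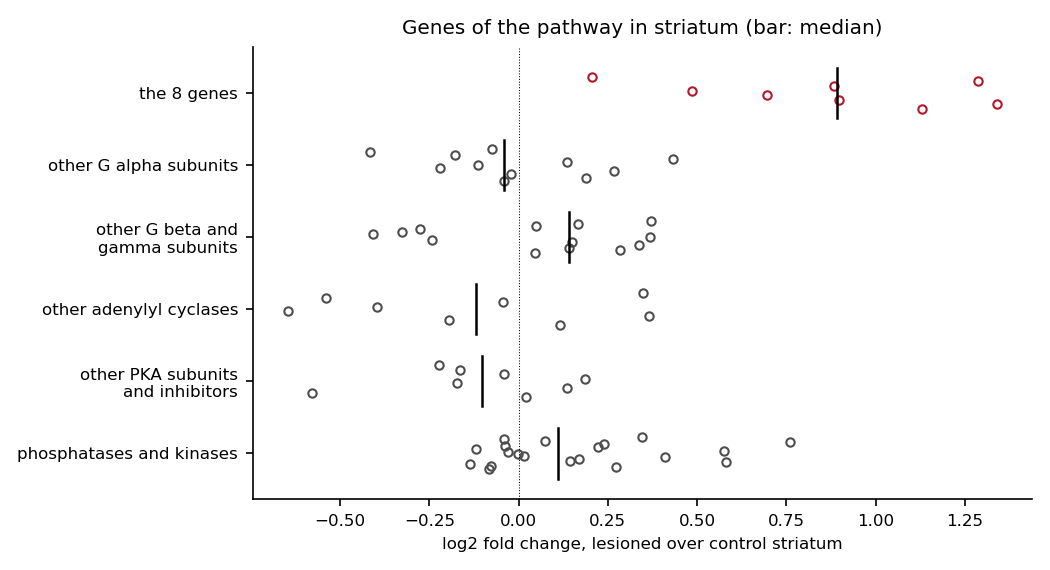
Log2 fold change of lesioned over control striatum for each tested gene of the pathway, by list, with the median as a bar. The 8 genes lie between 0.21 and 1.34 with a median of 0.89, and the medians of the other lists lie between -0.12 and 0.14.

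Between the regions, the same lists gave calls in both directions. In lesioned mice, where 22.2% of all tested genes were called higher in striatum and 22.3% lower, the 11 tested G alpha subunits gave 2 genes higher in striatum and 4 lower, the 13 beta and gamma subunits 4 higher and 4 lower, the 8 cyclases 1 higher and 3 lower, the 8 kinase A genes 0 higher and 2 lower, and the 20 phosphatases and kinases 2 higher and 8 lower. The median log2 fold change was 0.05 for G alpha, 0.38 for beta and gamma subunits, -0.53 for cyclases, -0.06 for kinase A genes and -0.30 for phosphatases and kinases. That of the 8 genes was 1.41 and that of all tested genes 0.021. Whether the lists differ from the 8 genes was not tested. In control mice the counts were 2 higher and 5 lower for G alpha subunits, 3 and 3 for beta and gamma subunits, 1 and 2 for cyclases, 0 and 2 for kinase A genes and 1 and 13 for the phosphatases and kinases. The medians of the lists lay there between -0.24 and -0.04, that of the 8 genes was 0.71 and that of all tested genes 0.018.

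Arpp21 is the host of a microRNA. The gene of miR-128-2 lies in an intron on the same strand, and its mature arm is shown because such a microRNA can be made from the transcript of its host. The sequence is RefSeq's for chr9:112118644-112118664 on the minus strand (GRCm38.p6), with capitals for the seed at bases 2 to 8.
mmu-miR-128-3p: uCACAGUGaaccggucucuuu
The libraries were made from polyadenylated RNA, so the counts of Arpp21 give no level of this microRNA.

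The annotation of 4 of the 8 genes shares exon bases with a gene on the opposite strand. The shared part was 15.71% of the exon bases of Ppp1r1b (with 1700003D09Rik), 7.96% of Gnb5 (with Gm19531), 7.63% of Gnal (with Mppe1) and 3.33% of Arpp21 (with 2900079G21Rik). Gnal lies on chr18:67088216-67226792. Whether counting used the strand is not stated in the labels, so these parts of the counts are uncertain, as is the split of reads between Arpp19 and its paralog Ensa.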

How the data were processed

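The authors deposited raw read counts per gene symbol in 1 table for 12 libraries. The labels' protocols describe poly(A) selection from 500 ng of RNA with an integrity number of 8.9 or more, a stranded kit and paired reads of 101 bp. The submitters' processing notes name STAR 2.7.1a, featureCounts and mm10. The gene annotation, the use of strand and the handling of multiply mapped reads were not given in the sources available. A set of 1830 genes that held only multiples of 11 and were at 0 in lesioned prefrontal library 1, with 0.144% of all counts, was left out; none of the 8 genes was among them.

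Here the counts were filtered with filterByExpr, scaled with TMM factors and tested with edgeR 4.0.16 in R 4.3.3 (glmQLFit, glmQLFTest) on the 6 libraries compared, with 4 residual degrees of freedom, because the spread differed between regions. The interaction used all 12. P-values were two-sided and adjusted by Benjamini and Hochberg over the 14545 genes of a comparison. SE is the size of the log2 fold change over the root of F. Levels are CPM, and log2 CPM used a prior count of 2. The code was tested on simulated data. The alternatives were DESeq2 1.42.0, limma 3.58.1 voom, other factors and filters, the 12-library fit, a replicate block, a GC and length correction and leaving out libraries. The 8 genes, the lists and the rule for named genes were chosen with earlier results of these data known. By that rule the text names the 8, up to 3 genes of each pathway list with the smallest p in striatum, and for each of the 8 the 3 genes with the closest profile, of which 1 is not reported here.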

Additional observations from a re-analysis of the deposited data

How the results depend on the processing

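The number of the 8 genes called between the regions was the same under every alternative that kept all libraries (6 in control and 7 in lesioned mice). In striatum, 0 of the 8 became 4 with DESeq2 (522 genes called of all tested, against 6), 4 with all 12 libraries in 1 fit (1040), 1 with voom and group weights (252), 1 without both striatal libraries that stood apart (76) and 2 when these were left out of the 12-library fit (555), an alternative chosen after seeing the data, as was leaving out single libraries in that fit. Voom called 0 genes, as did keeping the multiples of 11. Leaving out 1 striatal library gave 0 of the 8 and 0 to 2 genes, and in the 12-library fit 1 to 7 of the 8 and 274 to 2104 genes. In prefrontal cortex, 1 of the 8 became 0 with group weights (417 genes, against 812), with the multiples of 11 kept (532), with the replicate block and in the 12-library fit (30), and leaving out 1 library gave 0 to 3 of the 8 and 218 to 1085 genes. For the difference between regions, 0 of the 8 became 2 with DESeq2 (116 genes, against 12) and 1 without both libraries that stood apart (91). Voom called 2 genes, group weights 0 and the multiples of 11 kept 5, and leaving out 1 library gave 0 to 4 of the 8 and 0 to 171 genes. Residuals of same-numbered libraries correlated between -0.112 and 0.092. Differently numbered libraries were not compared, so these values cannot show whether replicate numbers pair the libraries. With the replicate block 0 genes were called in striatum and 6 for the difference. The median of the 8 genes relative to the markers was again -0.27. A block cannot change it, since each group holds the same replicate numbers. That median became 0.84 with the G alpha list in place of the markers. The cause of these changes was not tested. Prkar2b changed sign to -0.050 without both libraries that stood apart in either striatal fit, and to -0.001 for the difference. Arpp21 in control striatum against control prefrontal cortex, near 0 throughout, was -0.001 with RLE factors, -0.002 with DESeq2, -0.012 with voom and with the block, -0.013 with group weights and -0.054 with the GC correction, and between -0.12 and 0.15 without 1 library. Without 1 library, Adcy5 in prefrontal cortex lay between -0.21 and 0.072, Arpp19 there between -0.016 and 0.059, and Arpp19 between regions after lesion between -0.40 and 0.14. Without lesioned striatal library 1 Arpp19 was called lower in striatum after lesion, at -0.40, which made 8 of the 8 called there; without any 1 lesioned prefrontal library 6 were. All 8 genes had 86.54 CPM or more in every library, far above the floor of 3 counts.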

Other observations

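Arpp19 and Gnb5 lie 246 kb apart on chromosome 9, with Myo5a and Myo5c, which encode motor proteins of the myosin V class, between them. These genes were looked at after the values of Arpp19 had been seen. Myo5c differed by 1.61 log2 units in lesioned against control striatum (SE 0.45, adjusted p = 0.189, edgeR), which did not pass the test, and Myo5a had 0.23 (SE 0.10, adjusted p = 0.294, edgeR).

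Ratios of read counts within a library do not depend on its normalisation, though they are not corrected for gene length. The count of Arpp19 over that of its paralog Ensa was 2.71, 1.38 and 1.65 in lesioned striatal libraries 1, 2 and 3, against 0.726, 0.551 and 0.89 in control striatal libraries 1, 2 and 3. It lay between 1.26 and 1.34 in lesioned prefrontal cortex and between 1.17 and 1.23 in control prefrontal cortex. The ratio was thus above 1 in all libraries except the 3 of control striatum. Gnal over Gnas, the 2 stimulatory alpha subunits, was 1.67, 0.477 and 0.697 in lesioned striatum, against 0.435, 0.295 and 0.408 in control striatum. It lay between 0.191 and 0.198 in lesioned and between 0.191 and 0.225 in control prefrontal cortex, below every striatal library. Adcy5 over Gnal was 2.04, 1.60 and 1.77 in lesioned striatum, against 1.31, 1.38 and 1.42 in control striatum, so the groups did not overlap. Gng7 over Gnal was 1.62, 1.24 and 1.33 in lesioned striatum, against 1.18, 1.33 and 1.31 in control striatum. Ppp1r1b over Adcy5 was 0.90, 0.873 and 0.862 in lesioned striatum, against 0.738, 0.738 and 0.881 in control striatum. For both of these ratios the groups overlapped. How often ratios of other genes separate the groups was not computed. These ratios were not tested.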
